A study of Mus musculus with 24 samples.

Results

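A set of 10 genes that mark classes of cortical interneurons were followed in the prefrontal cortex of mice, 9 precursors of neuropeptides (*Npy*, *Sst*, *Vip*, *Cck*, *Crh*, *Tac1*, *Penk*, *Pdyn* and *Cort*) and *Pvalb*, the gene of the calcium-binding protein parvalbumin. They were taken by their symbols, and all 10 were found among the 15456 genes of the table of normalized counts. RNA of the mPFC was sequenced from 24 male BALB/c OlaHsd mice at postnatal week 11, 6 in each of 4 groups, with 1 library per mouse. Control mice are labelled as untreated and received the vehicle PBS according to the methods, duloxetine mice received daily injections of this inhibitor of serotonin and norepinephrine reuptake, *R. flavefaciens* mice received live cultures of this anaerobic gut bacterium by gavage, daily in the first days and then 2 times a week, and combined mice received both. The labels name no genetic change in any group, and the tissue was cut from slices of the frontal cortex with a needle, by position and not by cell type. Each library comes from its own mouse, and the mice were housed in groups. The question was whether the bacterium, the drug or both altered the expression of these genes.

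Most inhibitory neurons of the cortex fall into classes that are told apart by such genes. Parvalbumin cells are fast-spiking basket and chandelier cells that inhibit the soma and axon of pyramidal neurons, somatostatin cells, many of which also make neuropeptide Y or cortistatin, inhibit their dendrites, and cells with vasoactive intestinal peptide mainly inhibit other interneurons. Neuropeptides are made as precursors, cut and modified in dense core vesicles, and released mostly during strong firing, and their genes are known to respond to neuronal activity. Some of the 10 genes are not private to interneurons. *Cck* is also transcribed in many pyramidal neurons, and *Penk*, *Tac1* and *Pdyn* are abundant in projection neurons of the striatum, which lies below the frontal cortex.

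Depth, taken as the reads recovered from the normalized counts, ranged from 12811413 to 15607343 per mouse. Its median was 13591497 in control, 14536037 in duloxetine, 13943370 in *R. flavefaciens* and 14621655 in combined mice. In 3 exact permutation tests against control (two-sided, Benjamini-Hochberg adjusted), depth was higher in duloxetine and in combined mice (exact adjusted p = 0.00649 for each) and did not pass in *R. flavefaciens* mice (exact adjusted p = 0.738). The normalized counts are divided by a size factor for each mouse, to set the levels of mice of different depth on 1 scale.

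The 10 genes spanned a wide range of levels. To compare genes, normalized counts were divided by the length of the annotated exons in kb. *Cck*, the precursor of cholecystokinin, had the highest level, with 4141 ± 547 normalized counts per kb (mean ± SD, n = 24 mice). *Sst*, the precursor of somatostatin, followed with 3010 ± 457, and *Npy*, the precursor of neuropeptide Y, with 1341 ± 216. *Pvalb* had 471 ± 99.5 normalized counts per kb and stood between these abundant genes and the other 6. *Penk*, which encodes the enkephalins, had 168 ± 114, *Pdyn*, which encodes the dynorphins, 155 ± 17.7, and *Vip* 127 ± 13.8. The lowest levels were those of *Cort* (cortistatin, a relative of somatostatin) with 68.9 ± 16.2, *Tac1* (substance P) with 63.0 ± 12.4 and *Crh* (corticotropin-releasing hormone) with 52.5 ± 10.8 normalized counts per kb. Between neighbours in this order the higher gene exceeded the lower one in 23 or 24 of 24 mice, with 3 exceptions. *Penk* exceeded *Pdyn* in 7 of 24 mice, *Cort* exceeded *Tac1* in 15 and *Tac1* exceeded *Crh* in 18, so the order within these pairs was not the same from mouse to mouse.

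**Figure D1:**
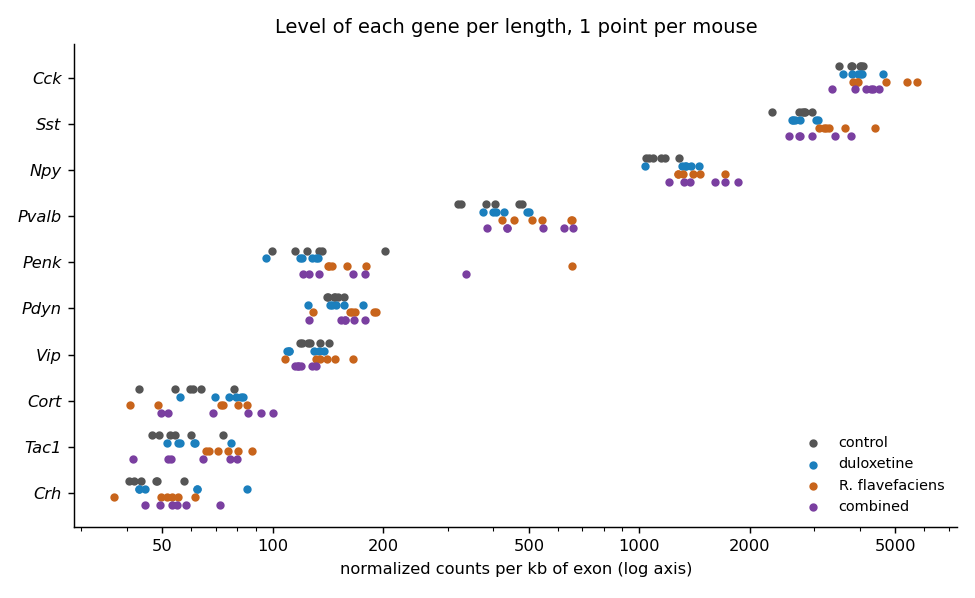
Normalized counts per kb of exon (horizontal log axis) of each gene (rows, from highest to lowest mean), 1 point per mouse, coloured by group. *Cck*, *Sst* and *Npy* lie above 1000 in every mouse, and the 2 points far to the right in the *Penk* row are 1 *R. flavefaciens* and 1 combined mouse.

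The reads behind these levels set their precision. *Cck* rested on 4389 to 7360 reads per mouse, for which counting error alone is 1.36 percent, while *Cort* rested on 28 to 77 reads, with a counting error of 14.6 percent, and *Crh* on 50 to 114 reads, with 12.0 percent. The spread between mice of a group, as a coefficient of variation pooled over the groups, was 11.5 percent for *Cck*, 23.0 percent for *Cort* and 19.8 percent for *Crh*. It was lowest for *Vip* (9.82 percent) and *Pdyn* (10.6 percent). *Penk*, with 51.1 percent, varied most, far beyond its counting error of 6.03 percent.

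After *R. flavefaciens* alone, all 10 genes had a higher mean log2 level than in controls, beside 50.8 percent of all genes, and none passed the threshold of limma (adjusted p under 0.05 over 14974 genes). The largest differences relative to their errors were those of *Sst*, *Pvalb*, *Npy* and *Tac1*. By limma 0 of 10 genes were called, beside 0.0267 percent of all genes tested. At an unadjusted p under 0.05, 5 of 10 were higher (*Sst*, *Pvalb*, *Npy*, *Tac1* and *Cck*), beside 8.86 percent of all genes. DESeq2 on the recovered reads called 4 of 10 (*Sst*, *Pvalb*, *Npy* and *Tac1*), beside 1.64 percent of all genes that it called higher, and edgeR called 0, beside 0.0134 percent called higher. Limma also called *Sst* and *Pvalb* when mouse 8_3 (named as in the labels) was left out, and *Sst* without mouse 9_1 or 9_2, all of the *R. flavefaciens* group. In these fits limma called 427, 239 and 616 of all genes, beside 4 with every mouse. The median log2 fold change of the 10 genes was 0.27, and that of all genes tested was 0.0031. With the trend on exon length removed, as described with the transcript lengths, the median of the 10 genes was 0.14. In a tissue homogenate, more cells of a class and more RNA per cell cannot be told apart.

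*Sst* had 1666, 2022 and 2130 normalized counts (lowest, median and highest) in control mice and 2224, 2356 and 3181 in *R. flavefaciens* mice. All 6 treated mice were above all 6 controls, and *Sst* was the only gene of the 10 without overlap in this comparison, beside 0.788 percent of all genes. It differed by a log2 fold change of 0.34 (SE 0.087, limma adjusted p = 0.0727). Limma called *Sst* with the first number of the mouse labels as a random block, where 221 of all genes were called, beside 4 without it. What this number stands for is not stated, and every number falls within a single group. The correlation fitted within it was -0.045. A negative correlation lowers the error of differences between groups, so the added calls do not show that results hold with allowance for the number. The gene, protein coding like the other 9, lies at chr16:23889581-23890844 on the minus strand as the file gives it (GRCm38), the only one of the 10 whose ends differ from those in GENCODE vM21, from which its exon length was taken.

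*Pvalb* had 334, 409 and 499 normalized counts in controls and 438, 549 and 683 in *R. flavefaciens* mice. Every control was exceeded by 4 of 6 treated mice, and all 6 were above the control mean. The log2 fold change was 0.44 (SE 0.13, adjusted p = 0.0875). The gene lies at chr15:78191114-78206400 on the minus strand.

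*Npy* ran from 589.8 over 632 to 728 normalized counts in controls and from 722 over 768 to 973 after the bacterium. The ranges overlapped between 722 and 728, with 4 of 6 treated mice above every control. Its log2 fold change was 0.31 (SE 0.094, adjusted p = 0.0929), and the gene lies at chr6:49822710-49829507 on the plus strand.

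*Tac1* had 159, 181 and 248 normalized counts in controls and 224, 249 and 298 in *R. flavefaciens* mice. The highest control lay within the treated range, and 3 of 6 treated mice were above it. On the log2 scale the difference was 0.42 (SE 0.13, adjusted p = 0.0965), and the gene lies at chr6:7554879-7565834 on the plus strand.

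*Cck* was above every control in 3 of 6 treated mice, and its log2 fold change was 0.23 (SE 0.087, adjusted p = 0.148). Its levels were 4581, 5094 and 5337 normalized counts in controls and 5003, 5660 and 7489 in *R. flavefaciens* mice. *Pdyn* differed by 0.17 (SE 0.086, adjusted p = 0.261), *Vip* by 0.10 (adjusted p = 0.511), *Crh* by 0.13 (adjusted p = 0.683) and *Cort* by 0.12 (adjusted p = 0.765) on the log2 scale. When 1 mouse was left out in turn, *Vip* ran from 0.05 (without 9_1) to 0.17 (without 8_3), *Crh* from 0.08 (without 7_2) to 0.22 (without 8_3) and *Cort* from 0.04 (without 2_3) to 0.25 (without 9_1). For *Vip* the 95 percent interval of the log2 difference ran from -0.06 to 0.26. *Pdyn* was above every control in 5 of 6 treated mice and below every control in the other. *Penk* had the largest fold change of the 10 genes, 0.56, and 0.21 without 1 mouse that is described with the striatal markers.

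**Figure D2:**
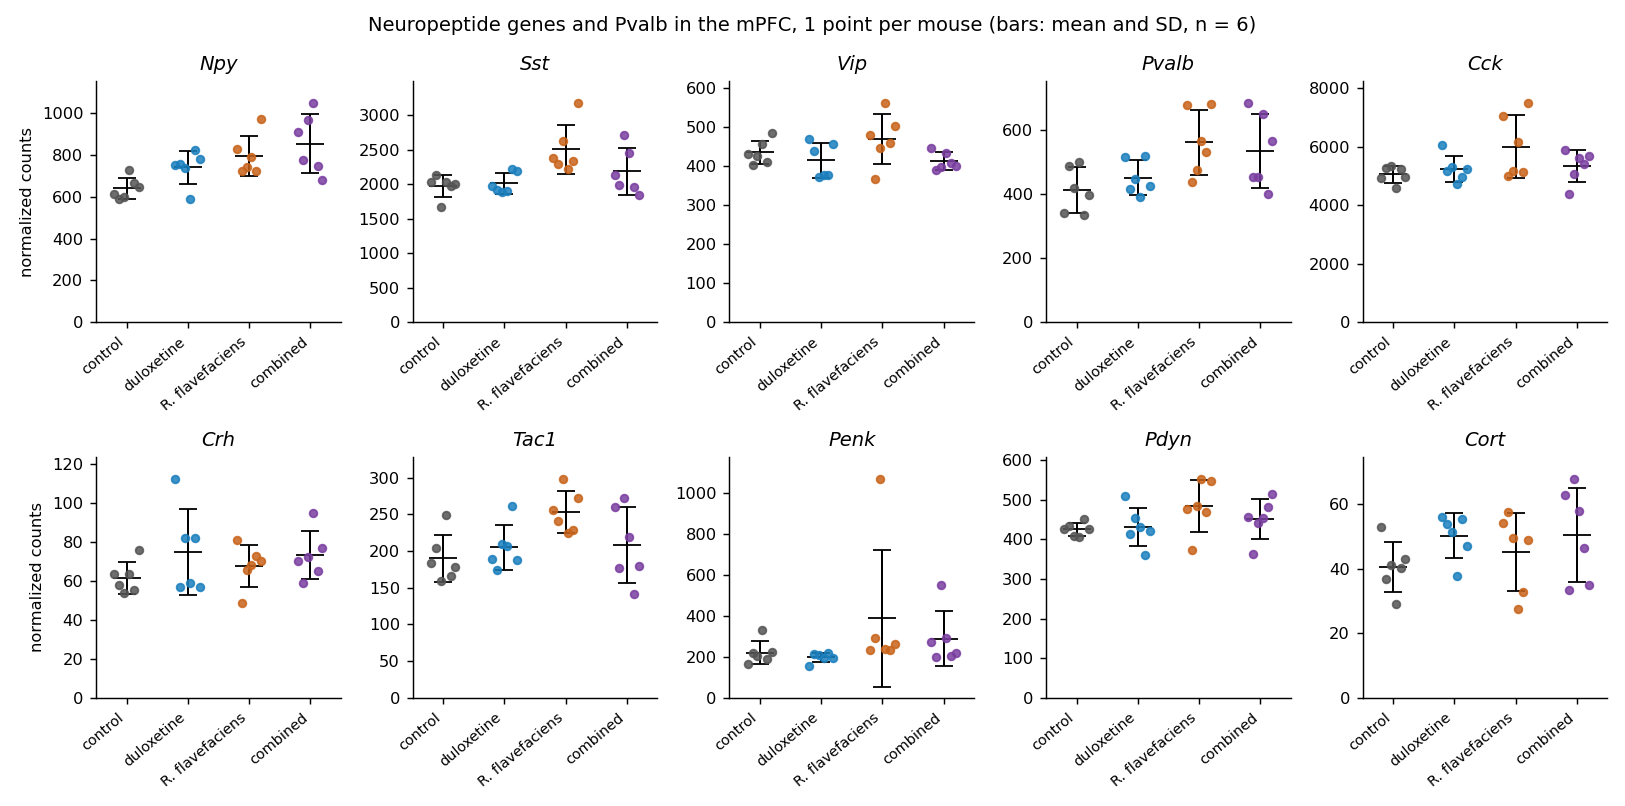
Normalized counts (vertical axes from 0) of the 10 genes in each mouse, grouped by treatment, with bars for the mean and SD of 6 mice. *Sst* of all *R. flavefaciens* mice lies above all controls, *Npy* is highest in combined mice, and single mice stand far above their group in *Penk*.

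The starts of the 4 genes with the smallest p-values in that comparison are shown to let their sequences be compared. Each window holds 250 bases before and 50 bases after the start of the RefSeq gene (GRCm38.p6), printed along the strand of the gene, with capitals marking the 8 bases TGACGTCA of the cyclic AMP response element, or its 5-base half-site TGACG on either strand (CGTCA when read on the opposite strand).
Sst (chr16:23890795-23891094, minus strand): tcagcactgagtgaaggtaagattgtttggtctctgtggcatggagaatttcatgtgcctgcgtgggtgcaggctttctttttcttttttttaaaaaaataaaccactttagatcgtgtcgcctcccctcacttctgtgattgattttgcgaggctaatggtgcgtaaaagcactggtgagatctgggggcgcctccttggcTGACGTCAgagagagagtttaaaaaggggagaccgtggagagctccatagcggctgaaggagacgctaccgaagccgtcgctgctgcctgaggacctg
Npy (chr6:49822460-49822759, plus strand): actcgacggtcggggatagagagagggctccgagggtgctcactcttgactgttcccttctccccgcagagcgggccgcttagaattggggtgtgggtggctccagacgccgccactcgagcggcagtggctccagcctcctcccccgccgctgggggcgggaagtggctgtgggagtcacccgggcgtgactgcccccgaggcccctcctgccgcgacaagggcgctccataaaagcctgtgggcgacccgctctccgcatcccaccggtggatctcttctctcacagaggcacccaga
Pvalb (chr15:78206351-78206650, minus strand): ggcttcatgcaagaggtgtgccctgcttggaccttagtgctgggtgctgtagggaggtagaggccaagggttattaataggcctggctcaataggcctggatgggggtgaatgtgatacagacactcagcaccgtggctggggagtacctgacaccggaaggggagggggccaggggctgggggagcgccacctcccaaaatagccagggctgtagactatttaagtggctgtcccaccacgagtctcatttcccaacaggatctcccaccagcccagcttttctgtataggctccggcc
Tac1 (chr6:7554811-7555110, plus strand): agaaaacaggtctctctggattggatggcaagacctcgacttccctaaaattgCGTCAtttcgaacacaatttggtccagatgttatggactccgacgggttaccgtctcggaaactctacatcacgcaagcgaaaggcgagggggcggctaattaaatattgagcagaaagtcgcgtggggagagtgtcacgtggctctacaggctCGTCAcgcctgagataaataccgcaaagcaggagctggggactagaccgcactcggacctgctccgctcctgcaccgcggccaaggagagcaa
The window of *Sst* holds the whole element 48 bases before the start, where it is known to bind CREB, a factor that follows cyclic AMP and calcium signals. *Tac1* holds 2 half-sites on the opposite strand, 197 and 43 bases before the start, and *Npy* and *Pvalb* hold neither form, *Pvalb* also not at its other RefSeq start. Of the other genes with an entry, *Cck*, *Vip* and *Cort* hold 1 half-site each, 47, 79 and 18 bases before the start, and *Pdyn* holds none. Of 32851 windows of all genes, 1.79 percent hold the whole element on either strand and 20.8 percent at least a half-site, those inside a whole element included. *Vip* also holds the letters TATAAA 3 times on its own strand, the nearest 30 bases before the start, and 8.32 percent of all windows hold them. A match describes the letters in the window and not a bound site.

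After both treatments, *Npy* had the clearest difference from control, and again no gene passed limma's threshold. Of 10 genes, 9 had a higher mean log2 level than control, *Vip* being the exception, beside 50.2 percent of all genes, with a median log2 fold change of 0.19 for the 10 genes and 0.00072 for all genes. By limma 0 of 10 were called, beside 0.1 percent of all genes, 2 of 10 were higher at an unadjusted p under 0.05 (*Npy* and *Pvalb*), beside 8.08 percent, DESeq2 called *Npy* alone, beside 0.741 percent called higher, and edgeR called 0, beside 0.0668 percent called higher. No gene of the 10 separated the groups without overlap, beside 0.882 percent of all genes. *Npy* had 681, 844 and 1051 normalized counts in combined mice, 5 of 6 of them above every control. It differed from control by 0.40 on the log2 scale (SE 0.094, limma adjusted p = 0.0624), and limma called it when mouse 9_3 of the *R. flavefaciens* group or mouse 12_3 or 12_4 of the combined group was left out, where it called 123, 43 and 154 of all genes, beside 15 with every mouse. *Npy* was also called with the first number of the mouse labels as a random block, where 59 of all genes were called and the fitted correlation was negative (-0.045). *Pvalb* had 401, 511 and 685 normalized counts in combined mice, 3 of 6 above every control, and a log2 fold change of 0.36 (SE 0.13, adjusted p = 0.183). *Sst*, which separated *R. flavefaciens* mice from controls, overlapped here, with 1849.5, 2060 and 2722 normalized counts and a log2 fold change of 0.14 (SE 0.087, adjusted p = 0.422). The other log2 fold changes were 0.32 for *Penk*, 0.28 for *Cort*, 0.24 for *Crh*, 0.11 for *Tac1*, 0.08 for *Pdyn*, 0.08 for *Cck* and -0.08 for *Vip*, with adjusted p from 0.427 to 0.701. Several of these rested on single mice. Without combined mouse 11_4 the median of the 10 genes was 0.10, and *Penk* moved to 0.12, *Cort* to 0.19, *Sst* to 0.07 and *Tac1* to 0.03. *Tac1* also stood at 0.04 without 10_2, 0.06 without 2_2, 0.19 without 2_3 and 0.21 without 12_3, and *Sst* at 0.09 without 2_2. Over all fits with 1 mouse left out, *Cck* ran from 0.05 (without 10_2 or 2_3) to 0.13 (without 11_3), *Pdyn* from 0.04 (without 12_4) to 0.14 (without 11_3) and *Vip* from -0.10 (without 10_2) to -0.04 (without 3_3).

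After duloxetine alone, 8 of 10 genes had a higher mean log2 level than control and *Penk* and *Vip* a lower one, beside 49 percent of all genes that were higher. The 10 genes had a median log2 difference of 0.08, and all genes one of -0.0018. By limma 0 of 10 were called, beside 0 percent of all genes, and at an unadjusted p under 0.05 only *Npy* was higher, beside 2.2 percent of all genes. DESeq2 called 0 of 10, beside 0 percent of all genes called higher, and so did edgeR, beside 0 percent. *Npy* had 589, 757 and 826 normalized counts in duloxetine mice, 5 of 6 above every control and 1 below every control. Its log2 fold change was 0.20 (SE 0.094, limma adjusted p = 0.9996). Mean *Cort* was 50.3 ± 6.99 normalized counts after duloxetine and 40.6 ± 7.80 in controls (SD, n = 6 each), and mean *Crh* was 74.8 ± 21.9 and 61.5 ± 8.14, and for each of these genes 3 of 6 duloxetine mice were above every control. Their log2 fold changes were 0.31 for *Cort* (SE 0.19) and 0.24 for *Crh* (SE 0.15), each with a limma adjusted p of 0.9996, and the changes of these genes after *R. flavefaciens* were 0.12 and 0.13 (the difference was not tested). *Crh* was at 0.12 without duloxetine mouse 5_1, which had 112 normalized counts, while the other 5 ran from 56.8 to 82.0, and *Cort* ran from 0.23 to 0.39 when 1 mouse was left out in turn. *Npy* ran from 0.17 to 0.27, and no gene of the 10 had an unadjusted p under 0.05 without 1_1, 2_1, 2_2, 5_1, 5_3, 5_4, 6_2 or 6_3, or with the trend on exon length removed. With only the groups compared in the fit, *Cort* and *Npy* had such a p. Mean *Sst* (2015 ± 151 against 1975 ± 160), *Pdyn* (431 ± 49.0 against 425 ± 16.6) and *Vip* (415 ± 45.1 against 435 ± 30.4) differed by less than 1 SD of either group.

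**Figure D3:**
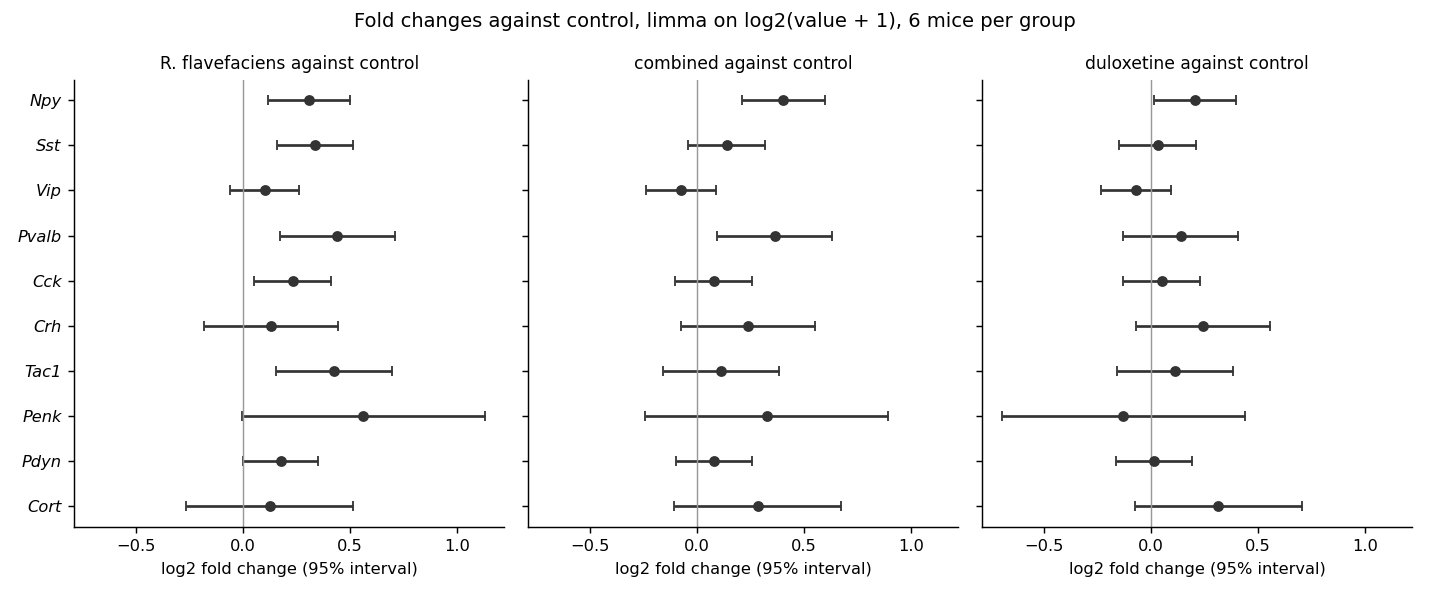
Log2 fold changes against control (horizontal axis) with 95 percent intervals from limma, for each gene (rows) in *R. flavefaciens*, combined and duloxetine mice. After *R. flavefaciens* all 10 points lie to the right of 0 and 5 intervals leave 0 out, while *Npy* lies to the right of 0 in all 3 panels, which share the 6 control mice.

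The effect of the bacterium averaged over mice with and without the drug was tested in the same fit, which uses the control and *R. flavefaciens* mice again. By limma 0 of 10 genes were called, beside 0.0267 percent of all genes. At the same comparison 6 of 10 were higher at an unadjusted p under 0.05, beside 7.68 percent of all genes, DESeq2 called *Npy*, *Sst* and *Pvalb*, beside 1.04 percent called higher, and edgeR called 0, beside 0.02 percent called higher. The averaged log2 fold change was 0.25 for *Npy* (SE 0.066, adjusted p = 0.0983), 0.22 for *Sst* (SE 0.061, adjusted p = 0.0983) and 0.33 for *Pvalb* (SE 0.093, adjusted p = 0.0991). It was 0.51 for *Penk* (SE 0.20, adjusted p = 0.174), 0.21 for *Tac1* (adjusted p = 0.234), 0.13 for *Cck* (adjusted p = 0.264) and 0.12 for *Pdyn* (adjusted p = 0.297). *Crh*, *Vip* and *Cort* differed by 0.06, 0.05 and 0.05, with unadjusted p of 0.563, 0.391 and 0.729. When 1 mouse was left out in turn *Crh* ran from 0.02 (without 12_2) to 0.13 (without 5_1), *Vip* from 0.02 (without 9_1) to 0.08 (without 8_3) and *Cort* from -0.000086 (without 11_4) to 0.11 (without 9_1), and *Penk* was at 0.33 without 8_4.

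Whether the drug altered the response to the bacterium was asked by comparing combined with *R. flavefaciens* mice and by the interaction. In combined against *R. flavefaciens* mice limma called 0 of 10 genes, beside 2.23 percent of all genes, and DESeq2 and edgeR called 0, beside 4.17 and 2.18 percent. *Tac1*, *Sst* and *Vip* were lower at an unadjusted p under 0.05, 3 of 10 beside 9.9 percent of all genes. Their log2 fold changes were -0.31 for *Tac1* (SE 0.13, adjusted p = 0.189), -0.20 for *Sst* (SE 0.087, adjusted p = 0.200) and -0.18 for *Vip* (SE 0.079, adjusted p = 0.217). None of the 3 had an unadjusted p under 0.05 without combined mouse 11_3, 12_3 or 12_4, and *Sst* was at -0.13 without *R. flavefaciens* mouse 9_3. The count of the 10 genes at that p was 1 without 9_3, 4 without 9_2, 5 without 8_3, and 1 (*Tac1*) with quantile or 75th percentile scaling or with only the groups compared in the fit. *Tac1* had 141, 199 and 272 normalized counts in combined mice, and 4 of 6 lay below every *R. flavefaciens* mouse. In the interaction 0 of 10 were called by limma, beside 0 percent of all genes, and 0 by DESeq2 and edgeR, also beside 0 percent. *Tac1* alone was lower at an unadjusted p under 0.05, beside 3.67 percent of all genes, with -0.43 (SE 0.19, adjusted p = 0.639), and no gene of the 10 had such a p without 8_4, 11_3, 12_3, 12_4, 2_2, 3_1 or 6_2. The count was 2 of 10 without 8_3, 9_1, 11_4 or 12_2, and without both 8_4 and 11_4. In combined against duloxetine mice 0 of 10 were called by limma, beside 0 percent, and 0 by DESeq2 and edgeR, beside 0.00668 and 0 percent. *Npy* alone was higher there at an unadjusted p under 0.05, by 0.20 (SE 0.094, adjusted p = 0.818), beside 3.02 percent of all genes. The count of the 10 genes at that p was 2 without 8_4 or 12_3. None of the 10 had such a p without 10_2, 11_4, 12_2, 5_1, 5_4 or 6_1, without both 8_4 and 11_4, or with the trend on exon length removed. With only the groups compared in the fit, *Penk* had it in place of *Npy*, at 0.45 (unadjusted p = 0.0298, adjusted p = 0.709), and *Npy* had an unadjusted p of 0.0662. For duloxetine averaged over mice with and without the bacterium, limma called 0 of 10, beside 1.03 percent, and DESeq2 and edgeR called 0, beside 2.14 and 0.935 percent. At an unadjusted p under 0.05, beside 14.9 percent of all genes, *Npy* was higher by 0.15 (adjusted p = 0.281) and *Vip* lower, with a log2 fold change of -0.12 (adjusted p = 0.290). With 1 mouse left out in turn, 2 of the 10 genes had such a p in 7 of 24 fits, 1 in 16 and none in the fit without 6_2. With quantile or 75th percentile scaling *Npy* alone had it, without both 8_4 and 11_4 *Vip* alone, and with the trend on exon length removed *Npy*, *Vip* and *Sst*.

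The length of the transcripts moved with all 3 comparisons against control. After *R. flavefaciens*, all genes with exons of under 1000 bases had a median log2 fold change of 0.16, those of 1000 to 2000 bases 0.12, those of 2000 to 4000 bases 0.05 and longer ones -0.04. In the same order the medians were 0.11, 0.06, 0.02 and -0.02 in combined mice and 0.09, 0.03, 0.0078 and -0.01 in duloxetine mice. *Npy* (566 bases), *Cort* (677) and *Sst* (721) fall in the shortest class, *Pvalb*, *Cck*, *Crh* and *Penk* in the next, *Pdyn*, *Tac1* and *Vip* in the third and none in the longest. With the trend on exon length taken off each mouse, 9 of 10 genes were still higher after *R. flavefaciens*, beside 52.2 percent of all genes in that fit, and 4 of them were higher at an unadjusted p under 0.05, beside 6.83 percent. The log2 fold change was then 0.40 for *Tac1*, 0.31 for *Pvalb*, 0.18 for *Sst* and 0.15 for *Npy*, 0.11 for *Cck*, whose unadjusted p was 0.160, 0.01 for *Crh* and -0.03 for *Cort*. In combined mice *Npy* moved from 0.40 to 0.26 and *Sst* from 0.14 to 0.0059, with a median of 0.11 for the 10 genes, and in duloxetine mice the median was 0.04, with 5 of 10 genes higher, beside 42.8 percent of all genes. For the bacterium averaged over the drug, 8 of 10 were higher, beside 49.2 percent, and the median moved from 0.17 to 0.11. There *Npy* moved from 0.25 to 0.15 (adjusted p = 0.224), *Sst* from 0.22 to 0.12 (adjusted p = 0.254), *Pvalb* from 0.33 to 0.24 (adjusted p = 0.224) and *Cck* from 0.13 to 0.05.

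In *Penk*, single mice decided the group means. In *R. flavefaciens* mice it had 232, 249 and 1071 normalized counts (lowest, median and highest), and in combined mice 198, 245 and 550.1. Controls had 163, 210.5 and 331 and duloxetine mice 157, 203 and 217. The other 5 *R. flavefaciens* mice ended at 293, within the control range, and mouse 8_4 alone stood above 1000. The log2 fold change against control was 0.56 (SE 0.28, limma adjusted p = 0.260) with this mouse and 0.21 without it (adjusted p = 0.586). In combined mice it was 0.32 (SE 0.28, adjusted p = 0.564) with mouse 11_4 and 0.12 without it (adjusted p = 0.855). Leaving out both mice moved the averaged log2 fold change of the bacterium from 0.51 to 0.23 (adjusted p = 0.278).

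The genes whose pattern was most like that of *Penk* over the 24 mice, with group means removed, were *Drd2* (Pearson's r = 0.94), *Adora2a* (0.92) and *Gng7* (0.89). *Drd2* and *Adora2a* encode the dopamine D2 and adenosine A2a receptors, which together with *Penk* mark the indirect-pathway neurons of the striatum. Mouse 8_4 had 237 normalized counts of *Drd2* and mouse 11_4 had 132, while the other 22 mice ran from 23.3 to 65.4. For *Adora2a* the values were 393 and 155, beside 23.9 to 101 in the other mice. *Gpr6*, another gene of these neurons, had 81.2 and 41.5, beside 0 to 16.7. Without these 2 mice r fell to 0.71 for *Drd2*, 0.66 for *Adora2a* and 0.36 for *Gng7* (n = 22 mice).

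The whole list of striatal markers showed the same mice. Of its 13 genes, 11 were in the table, without *Isl1* and *Ido1*, and *Pde10a* was the most abundant. Their summed level was 7397 normalized counts in mouse 8_4 and 4622 in mouse 11_4, and 2206 to 3401 in the other 22. By group the lowest, median and highest sums were 2733, 2769 and 3401 in control, 2588, 2732 and 2802 in duloxetine, 2206, 2490 and 7397 in *R. flavefaciens* and 2416, 2690 and 4622 in combined mice. Over the 24 mice, with group means removed, *Penk* followed the mean log2 level of the list with r = 0.93 and rho = 0.81 (permutation within groups, adjusted p = 0.0028 and 0.0020 over 40 relations), and with r = 0.72 without the 2 mice. It was the only one of 40 relations between the 10 genes and 4 marker lists (striatum, excitatory neurons, GABA neurons and oligodendrocytes) that passed in both measures. *Sst* with the oligodendrocyte list had r = 0.63 and rho = 0.65 and did not pass (permutation within groups, adjusted p = 0.0760 and 0.0540), with r = 0.68 without 2 mice. The sums of that list ran from 11505 to 51301 normalized counts between mice. Like *Penk*, *Tac1* was the highest of its group in mouse 8_4, with 298 normalized counts, and in mouse 11_4, with 272, while *Pdyn* had 485 and 442, beside 361 to 553 in the other mice. Striatal neurons were not counted, and their part in the *Penk* values was not tested. For the other 9 genes, the differences from control held their direction without mouse 8_4, at 0.32 for *Sst*, 0.49 for *Pvalb*, 0.33 for *Npy*, 0.37 for *Tac1* and 0.27 for *Cck*, with adjusted p from 0.132 to 0.179. *Penk* lies at chr4:4133531-4138819 on the minus strand (GRCm38), where an exon of the gene A830012C17Rik overlaps it on the other strand. The library kit does not mark strand, so reads of the pair cannot be told apart. The overlapping gene is absent from the table of normalized counts.

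**Figure D4:**
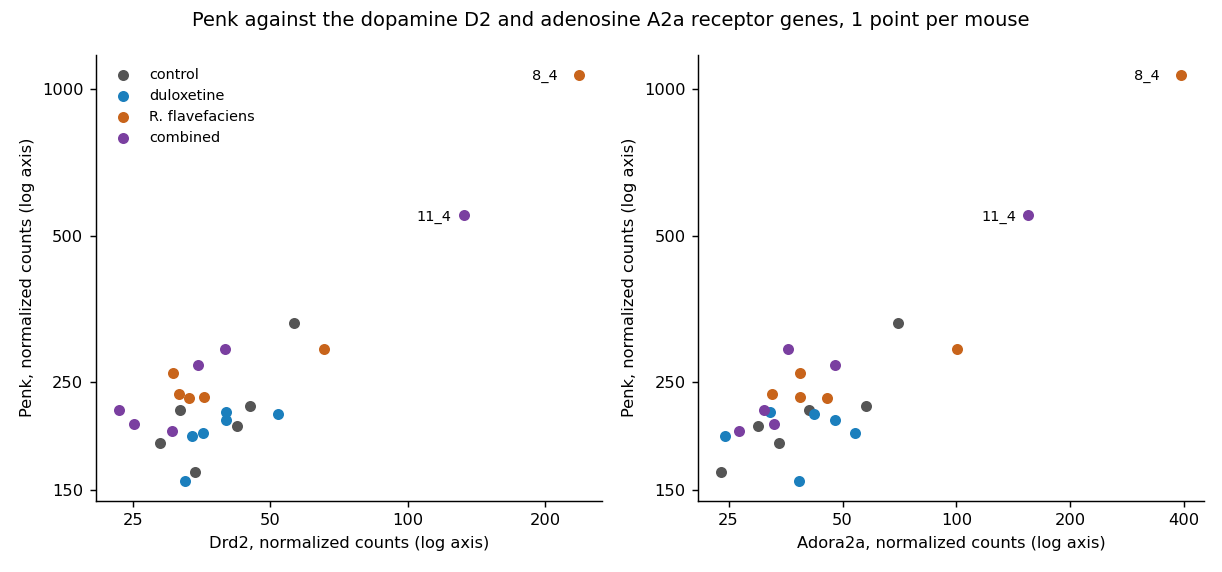
*Penk* (vertical log axis, normalized counts) against *Drd2* (left) and *Adora2a* (right, horizontal log axes), 1 point per mouse, coloured by group. Mice 8_4 and 11_4 lie far above the other 22, which run from 157 to 331 in *Penk*.

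Within groups, several of the genes went up and down together from mouse to mouse. Of 45 pairs, 35 had a positive and 10 a negative r after the group means were removed, and 5 passed a permutation test within groups in both Pearson's r and Spearman's rho (adjusted over 45 pairs). *Npy* and *Sst* had r = 0.72 and rho = 0.71 (adjusted p = 0.0104 and 0.0205), and r = 0.71 without the 2 mice farthest from the median. *Cck* and *Pdyn* had r = 0.69 and rho = 0.67 (adjusted p = 0.0257 and 0.0248), and 0.58 without 2 mice. *Sst* and *Tac1* had r = 0.64 and rho = 0.71 (adjusted p = 0.0276 and 0.0205), and 0.60 without 2 mice. *Tac1* and *Penk* had r = 0.62 and rho = 0.59 (adjusted p = 0.0090 and 0.0312), and 0.54 without 2 mice. *Pvalb* and *Crh* had r = 0.56 and rho = 0.54 (adjusted p = 0.0276 and 0.0425), and 0.61 without 2 mice. *Pvalb* and *Cck* passed in r (0.60, adjusted p = 0.0353) but not in rho (0.59, adjusted p = 0.0511). The lowest r was that of *Cck* and *Penk*, -0.34 (adjusted p = 0.507). All points of a pair share the same libraries and punches. The trend on exon length was not removed for these correlations, and their causes were not tested.

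**Figure D5:**
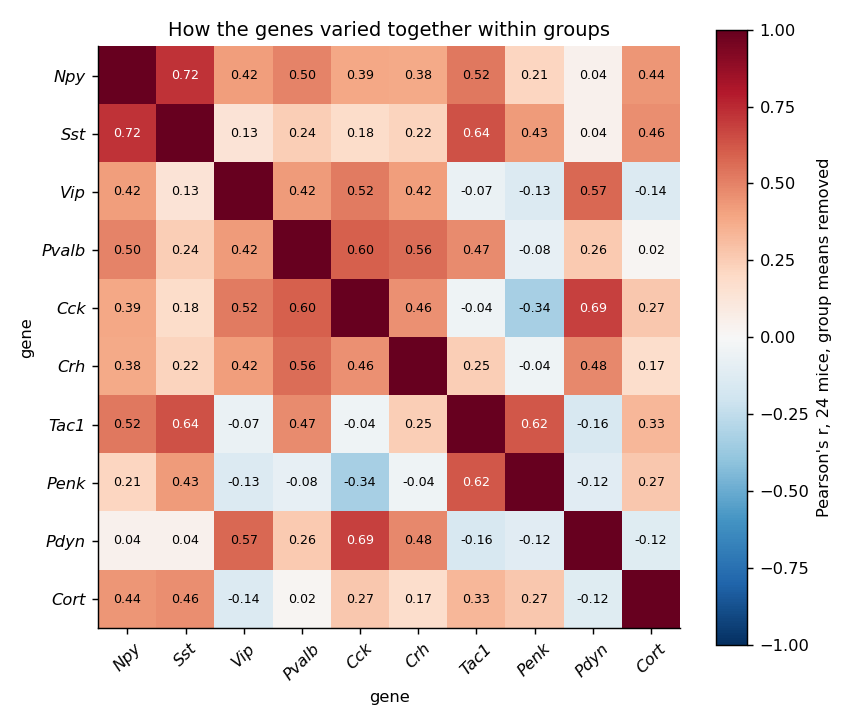
Pearson's r between each pair of the 10 genes over 24 mice after removal of group means (colour, from -1 to 1, with the value in each cell). *Npy* with *Sst* (0.72) and *Cck* with *Pdyn* (0.69) are the highest, and *Cck* with *Penk* (-0.34) is the lowest.

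Outside the 10, the closest patterns among 14964 genes were given for each, as a description of these 24 mice. *Pvalb* was most like *Cplx1* (r = 0.89), the gene of complexin 1, which takes part in vesicle fusion, and like *Ntm* (0.86) and *Cabp1* (0.83), which encodes a calcium-binding protein. *Cck* was most like *Mtch1* (0.96), *Calm3* (0.90), a gene of calmodulin, and *Ap1s1* (0.89). *Sst* and *Npy* shared their closest gene, *Timp4* (0.86 and 0.84), an inhibitor of metalloproteinases, followed by *Pfn1* (0.84) and *Rps28* (0.84) for *Sst* and by *Bcl7c* (0.83) and *Cldn5* (0.81), a tight-junction gene of endothelial cells, for *Npy*. *Vip* was most like *Magoh* (0.86), *Ston1* (0.82) and *Btbd3* (0.73). *Pdyn* was most like *Vstm2l* (0.82), *Chst1* (0.79) and *Anxa11* (0.78). *Cort* was most like *Cotl1* (0.84), *Mettl1* (0.76) and *Mrpl49* (0.70). *Tac1* was most like *Mospd3* (0.77), *Tpbgl* (0.75) and *Hist1h2bc* (0.72), and *Crh* like *Msantd3* (0.77), *Col13a1* (0.75) and *Tmem183a* (0.66).

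The genes that all inhibitory neurons use were set beside the peptides. *Gad1*, which encodes the enzyme that makes GABA, had 3879 normalized counts in control and 3999 in *R. flavefaciens* mice on average, with a log2 fold change of 0.04 (SE 0.046). *Gad2* differed by -0.04 (SE 0.050) and *Lhx6*, a factor of parvalbumin and somatostatin cells, by -0.04 (SE 0.063). Of 20 genes of the GABA list 0 were called by limma after *R. flavefaciens*, beside 0.0267 percent of all genes, and the median was 0.02. At an unadjusted p under 0.05, 3 of 20 were higher, beside 8.86 percent of all genes, and 3 were lower, beside 10.8 percent. *Dlx5* was higher, with 0.59 (SE 0.15, adjusted p = 0.0727), and *Erbb4*, the neuregulin receptor of interneurons, was lower, with -0.34 (SE 0.086, adjusted p = 0.0727). In combined against *R. flavefaciens* mice *Dlx5* fell by 0.62 on the log2 scale (SE 0.15, adjusted p = 0.0339). When each of the 24 mice was left out in turn, *Dlx5* was called in 18 fits (not without 7_2, 8_3, 8_4, 10_2, 11_3 or 12_4), with adjusted p up to 0.102. With only the groups compared in the fit, limma called 0 of all 14974 genes, *Dlx5* included.

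Further markers of the same interneuron classes were read beside the peptides, where 50.8 percent of all genes were higher after *R. flavefaciens* and 0.0267 percent were called. Of 6 further genes of parvalbumin cells, 4 were higher and 2 lower after *R. flavefaciens*, with 0 called and *Cox6a2* at 0.53 (adjusted p = 0.143), while *Kcnc1*, the potassium channel gene and the most abundant, was at -0.08. Of 7 further genes of somatostatin cells, 1 was higher and 6 lower, with 0 called and the most abundant, *Nos1*, at -0.23 (adjusted p = 0.150). Of 6 tested genes of *Vip* cells, 5 were higher and 1 lower, with 0 called and *Igf1*, the most abundant, at -0.0032. Of 6 genes of *Lamp5* cells, 2 were higher and 4 lower, with 0 called. *Reln*, the extracellular matrix gene reelin, was at -0.37 there (SE 0.077, adjusted p = 0.0687), and *Lamp5*, the most abundant, at 0.05. At an unadjusted p under 0.05, 1 of the parvalbumin list was higher, beside 8.86 percent of all genes, and 2 of the somatostatin list and 1 of the *Lamp5* list were lower, beside 10.8 percent, while *Sst* itself was higher. The medians of the 4 lists were 0.05, -0.04, 0.13 and -0.10, beside 0.0031 for all genes. The counts of the lists describe them and were not tested against other genes.

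The receptor genes of the peptides were set beside them. Their list also holds *Crhbp*, the gene of a binding protein of corticotropin-releasing hormone, which is in the somatostatin list too. Of 20 receptor genes, 18 were in the table and 16 were tested, of which 4 were higher and 12 lower after *R. flavefaciens*, beside 50.8 percent of all genes higher, with 0 called and a median of -0.10. At an unadjusted p under 0.05, 3 of the 16 were lower, beside 10.8 percent of all genes, and 0 higher. After duloxetine alone 6 were higher and 10 lower, beside 49 percent of all genes higher, with 0 called and a median of -0.06. *Oprm1*, the mu opioid receptor, had 35.5 normalized counts in control and 18.9 in *R. flavefaciens* mice (log2 fold change -0.99, SE 0.23, adjusted p = 0.0727). *Sstr4*, a somatostatin receptor, was at -0.45 (adjusted p = 0.0818) and *Oprd1*, the delta opioid receptor, at -0.34 (adjusted p = 0.125). In combined mice 6 were higher and 10 lower, beside 50.2 percent of all genes higher, with 0 called, beside 0.1 percent. At an unadjusted p under 0.05, 1 was higher and 3 lower in these mice, beside 8.08 and 8.73 percent of all genes. *Cckbr*, the main cholecystokinin receptor of the cortex and the most abundant of the list, was at -0.26 in combined mice (SE 0.067, adjusted p = 0.0871). *Sstr4* was at -0.44 there and *Npy1r*, a receptor of neuropeptide Y, at -0.26 (adjusted p = 0.163).

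The enzymes and granule proteins that turn precursors into peptides were also read, where 50.8 percent of all genes were higher after *R. flavefaciens* and 0.0267 percent were called. Of 13 such genes, 7 were higher and 6 lower after *R. flavefaciens*, 1 in each direction at an unadjusted p under 0.05 (beside 8.86 percent of all genes higher and 10.8 percent lower), with 0 called and a median of 0.03, and *Cpe*, carboxypeptidase E and the most abundant, was at 0.11 (adjusted p = 0.261). *Scg5* was at 0.15 and *Cadps2* at -0.24 (adjusted p = 0.138 and 0.138). In combined mice 4 were higher and 9 lower, beside 50.2 percent of all genes higher, with 0 called, beside 0.1 percent. At an unadjusted p under 0.05, 0 were higher and 1 lower in these mice, beside 8.08 and 8.73 percent of all genes. *Pcsk1*, prohormone convertase 1, was at -0.39 in combined mice (adjusted p = 0.174). Of 15 other peptide precursors, 8 were in the table and 7 were tested. After *R. flavefaciens* 5 were higher, 2 of them at an unadjusted p under 0.05, and 2 lower, with 0 called, and *Pnoc*, the precursor of nociceptin and itself made by cortical interneurons, was at 0.49 (SE 0.14, adjusted p = 0.0816), *Cartpt* at 0.38 (adjusted p = 0.236), and *Adcyap1*, the most abundant, at -0.22.

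Immediate early genes, which follow neuronal firing, were compared because peptide genes can be driven by activity. With duloxetine averaged over the bacterium 5 of 7 fell by limma, beside 1.03 percent of all genes called, namely *Npas4* by 1.16 (SE 0.19, adjusted p = 0.0040), *Fos* by 0.66 (SE 0.16, adjusted p = 0.0387), *Nr4a1* by 0.64 (SE 0.13, adjusted p = 0.0134), *Egr1* by 0.56 (SE 0.12, adjusted p = 0.0302) and *Junb* by 0.53 (SE 0.11, adjusted p = 0.0136) on the log2 scale. With each mouse left out in turn *Npas4*, *Nr4a1* and *Junb* were called in all 24 fits, *Egr1* in 18 (not without 2_1, 2_3, 3_1, 5_3, 9_1 or 11_3, adjusted p up to 0.0615) and *Fos* in 11, with adjusted p up to 0.0782. *Arc* and *Fosb* were at -0.71 and -0.21 and did not pass. In combined against *R. flavefaciens* mice, where 2.23 percent of all genes were called, *Npas4* fell by 1.22 (adjusted p = 0.0180), *Nr4a1* by 0.66 (adjusted p = 0.0489) and *Junb* by 0.59 (adjusted p = 0.0356). There *Npas4* was called in 23 of 24 fits with 1 mouse left out (not without 11_3, adjusted p = 0.0605), *Junb* in 16, with adjusted p up to 0.101, and *Nr4a1* in 6, with adjusted p up to 0.118, and neither DESeq2 nor edgeR called *Nr4a1* (adjusted p = 0.0514 and 0.0569). With only the groups compared in the fit, limma called 0 of all 14974 genes in combined against *R. flavefaciens* mice, these genes included. After *R. flavefaciens* alone 5 of 7 were higher and 2 lower, with 0 called and a median of 0.08. In that comparison 50.8 percent of all genes were higher and 0.0267 percent were called. Against control all 7 were lower after duloxetine alone (median -0.61), 6 of them at an unadjusted p under 0.05, with 0 called. In the fit with the trend on exon length removed, 2.47 percent of all genes were lower at that p after duloxetine. In combined mice all 7 were lower than in control (median -0.58), 5 of them at that p, beside 8.73 percent of all genes, with 0 called. Limma called 0 percent of all genes after duloxetine and 0.1 percent in combined mice. None of the 10 neuropeptide and parvalbumin genes was called by limma, DESeq2 or edgeR for the averaged drug or in combined against *R. flavefaciens* mice.

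Markers of other cells were read in the same libraries. Of the 5 genes of red blood cells, all were higher after *R. flavefaciens*, 4 of them at an unadjusted p under 0.05, beside 8.86 percent of all genes, with 0 called and a median log2 fold change of 0.75. In combined mice all 5 were higher as well, 5 of them at that p, beside 8.08 percent of all genes (median 0.78), and after duloxetine all 5 were higher with 0 at that p, beside 2.2 percent (median 0.30). Their summed level was 278, 350 and 448 normalized counts (lowest, median and highest) in control, 289, 354 and 984 in duloxetine, 418, 535 and 988 in *R. flavefaciens* and 275, 470 and 1090 in combined mice, with *Hbb-bs* the most abundant. All 6 microglial genes were also higher after *R. flavefaciens*, 4 of them at an unadjusted p under 0.05, with 0 called, a median of 0.20 and *Csf1r* the most abundant, and their sums had means of 4035 ± 232 in control, 4476 ± 418 in duloxetine, 4536 ± 340 in *R. flavefaciens* and 4695 ± 613 in combined mice. All 6 were higher in the other comparisons with control too, with 0 called in each. At an unadjusted p under 0.05, 4 were higher after duloxetine (median 0.18), beside 2.2 percent of all genes, and 5 in combined mice (median 0.23), beside 8.08 percent. Of 6 genes of deep cortical layers all were lower after *R. flavefaciens*, 3 of them at an unadjusted p under 0.05, beside 10.8 percent of all genes, with 0 called, a median of -0.28 and *Etv1* the most abundant. In combined mice all 6 were lower, 1 of them at that p, beside 8.73 percent (median -0.17), and after duloxetine 5 of 6 were lower with 0 at that p (median -0.04). Their sums were 5822 ± 416 in control, 5763 ± 834 in duloxetine, 4936 ± 826 in *R. flavefaciens* and 5326 ± 545 in combined mice. *Ttr*, the defining gene of the choroid plexus, had 657 normalized counts in mouse 8_4, 30.0 in mouse 11_4 and 0 to 68.6 in the other 22. Controls ran from 0 to 3.08. *R. flavefaciens* mice 9_2 and 9_3 had 32.91 and 54.95, combined mice 10_2 and 11_3 had 51.52 and 62.02, and duloxetine mouse 5_3 had 68.57. The remaining treated mice had at most 10.71. Of the 4 genes of that list 3 were in the table, without *Folr1*, *Kl* was the most abundant, and the sums were 39.2 to 64.2 in control, 34.6 to 152 in duloxetine, 25.5 to 791 in *R. flavefaciens* and 31.1 to 124 in combined mice. The median log2 fold change of the list was 0.98 after *R. flavefaciens*, 0.55 in combined and 0.03 in duloxetine mice. In each of these comparisons 2 of 3 genes were higher and 1 lower, with 0 called. The part of these cells in the differences of the 10 genes was not tested. The lists of excitatory neurons, upper layers, claustrum, olfactory bulb, oligodendrocytes, astrocytes and endothelium had medians between -0.14 and 0.14 after *R. flavefaciens*, with 0 genes called.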

How the data were processed

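RNA of 24 mouse mPFC samples was measured by RNA-seq. The authors deposited gene counts divided by 1 DESeq2 size factor per mouse, a signal on a continuous scale. Their methods name TopHat2 and GRCm38.p5, while the submitters' processing notes name mm9, TopHat2 2.1.0, Bowtie2 2.2.6 and DESeq2 1.18.1. The positions in the file match GRCm38 (GENCODE vM21) for 9 of 10 genes, all but *Sst*. The counter, its strand setting and the gene filter are not given in the sources used here.

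Values were tested as log2(value + 1), so fold changes of low genes are understated, with limma 3.58.1 (trend, R 4.3.3) in 1 fit of 4 groups over 14974 genes with a mean of at least 10, and 8 contrasts, each Benjamini-Hochberg adjusted over all genes (threshold 0.05). Whole reads were recovered for 99.997 percent of values (tolerance 0.0051), and edgeR 4.0.16 and DESeq2 1.42.0 were run on them as alternatives, beside other filters, scalings, a block and left-out mice. Scripts were tested on simulated data. Exon lengths are from GENCODE vM21 and promoters from RefSeq (GRCm38.p6), where 8 of 10 genes had an entry, without *Crh* and *Penk*. The 10 genes and the lists were chosen with earlier results of these data known. Named were all 10 genes, the 3 most alike genes of each, and of each list the genes called, otherwise up to 3 with the smallest p after *R. flavefaciens* or both treatments, and the most abundant. *Gad1*, *Gad2*, *Lhx6*, *Gpr6*, *Arc* and *Fosb* were added after their values were seen. Some genes of the lists that this rule names are not reported here.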

Additional observations from a re-analysis of the deposited data

Results flagged for a closer look

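Within the 4 groups of 6 mice, each of the 10 genes was searched for a single mouse far from the others, by the gap to the nearest mouse divided by the range of the group. Of 40 combinations of gene and group 5 stood out, where chance gives about 1 in 20, or 2. *Npy* was 588.78 normalized counts in mouse 6_1, the lowest of the duloxetine group. *Sst* was 1665.8 in mouse 2_2, the lowest control. *Penk* was 330.88 in mouse 2_3, the highest control, 1070.5 in mouse 8_4, the highest *R. flavefaciens* mouse, and 550.09 in mouse 11_4, the highest combined mouse. The gap was 0.927 of the range in mouse 8_4, 0.732 in 11_4 and 0.631 to 0.655 in the other 3 mice.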

How the results depend on the processing

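Of 1628 values of 47 fold changes under alternatives, 1597 kept their direction and their side of 0.05, 18 newly passed it and 13 changed sign. None of the 47 passed 0.05 in the main fit, so none could lose it. Limma called 0 of the 10 genes in each comparison. After *R. flavefaciens* DESeq2 called 4, and a random block on the first label number called 1 (*Sst*). Leaving out 1 mouse gave 0 to 2, namely 2 without 8_3 (*Pvalb* and *Sst*) and 1 without 9_1 or 9_2 (*Sst*). In combined mice, DESeq2, the block and a fit of only the groups compared called 1 each (*Npy*), and leaving out 1 mouse gave 0 to 1, with *Npy* called without 9_3, 12_3 or 12_4. For the bacterium averaged over the drug DESeq2 called 3. With the trend on exon length removed, *Cort* after *R. flavefaciens* was -0.030, *Cck* in combined mice -0.014, for the averaged bacterium *Crh* was -0.014 and *Cort* -0.057, and after duloxetine *Sst* was -0.049, *Cck* -0.0040 and *Pdyn* -0.0091. After duloxetine *Sst* ran from -0.018 (without 2_2) to 0.052 and *Pdyn* from -0.037 (without 5_1) to 0.062 when 1 mouse was left out, *Pdyn* being also below 0 without 2_3 or 5_4. *Cort* in the average ran from -8.6e-05 (without 11_4) to 0.11 when 1 mouse was left out, and was -0.018 without 8_4 and 11_4. Removing the length trend and leaving out 8_4 and 11_4 were chosen after seeing the data. The causes were not tested.

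Over all genes limma called 4 after *R. flavefaciens*, 15 in combined mice, 334 in combined against *R. flavefaciens*, 154 for the averaged drug and 4 for the averaged bacterium. DESeq2 called 488, 217, 624, 321 and 441, and 1 each for duloxetine and for combined against duloxetine. The block, with a fitted correlation of -0.045, called 221, 59, 533 and 255 in the first 4. A fit of only the groups compared called 0, 196 and 0 in the first 3. For combined mice a minimum mean of 50 gave 30 and scaling to the 75th percentile 23, and for the averaged bacterium quantile scaling gave 2. Without the length trend the counts were 1 after *R. flavefaciens*, 65 in combined mice, 248 for the drug and 7 for the bacterium, and without 8_4 and 11_4 they were 2, 9 and, for the bacterium, 1. Leaving out 1 mouse gave 0 to 616 after *R. flavefaciens* (616 without 9_2, 427 without 8_3, 239 without 9_1), 5 to 154 in combined mice (154 without 12_4, 5 without 2_1), 47 (without 11_3) to 577 (without 8_4) in combined against *R. flavefaciens*, 46 (without 3_1) to 260 (without 12_4) for the drug and 1 (without 5_4) to 135 (without 8_3) for the bacterium.

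No paired analysis was possible because the groups share no replicate numbers. Depth limits *Cort* and *Crh* most, whose counting errors are 14.6 and 12.0 percent.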
